A study of Mus musculus with 6 samples.

Results

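Metallothioneins Mt1 and Mt2 and 42 solute carriers for ions, bicarbonate, phosphate, sulfate, zinc and manganese were followed in lung cells of newborn mice raised in hyperoxia or in room air. The 44 genes were chosen by name, with earlier results of these data known. They are listed members of the Slc4, Slc8, Slc9, Slc12, Slc20, Slc26, Slc30 and Slc39 families with the pair of metallothioneins. All 44 were found by symbol among the 56941 gene IDs of the count table. The hyperoxia group (75% oxygen) and the room air group (21% oxygen) held 3 RNA-seq libraries each, and no genotype or strain is given in the labels. Pups were exposed from postnatal day 0, and lungs were collected at day 7. Lungs were digested with an enzyme blend, and cells that bound beads against CD31, an endothelial adhesion molecule, were retained on a magnetic column.

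Library totals ran from 39379793 to 42343192 counts. The bead-selected cells carried the endothelial markers, with Pecam1, the gene for CD31, at 1932 to 2649 CPM in hyperoxia and 2269 to 3109 CPM in room air (CPM is the count scaled to library size, after TMM normalization). The libraries also held epithelial RNA: the 8 alveolar type 2 markers summed to 13766 to 16797 CPM in hyperoxia and 12327 to 19296 CPM in room air. Hyperoxia 2 and room air 3 had the lowest endothelial sum and the highest alveolar type 1 and type 2 sums of their groups. Hyperoxia 1 and 3 had 2 and 0 reads of 4 Y-linked genes, whereas hyperoxia 2 and the 3 room air libraries had 5433 to 6361. Counts of Xist, expressed from the inactive X chromosome of females, were 7007 and 9350 in hyperoxia 1 and 3. They were 36 in hyperoxia 2 and 0, 2 and 10 in room air 1, 2 and 3. The presence of Y-linked reads, and with it sex as read from these genes, was thus partly confounded with oxygen. In bulk libraries such as these, fewer cells of a type and less RNA per cell cannot be told apart.

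As background, SLC39 (ZIP) proteins bring zinc, and for some members manganese or iron, into the cytosol, and SLC30 (ZnT) proteins carry it out of the cytosol or into organelles. Metallothioneins bind zinc and copper in the cytosol, and their genes are switched on by the zinc-sensing factor MTF-1 through short metal-response elements. SLC4 and SLC26 proteins exchange or cotransport bicarbonate and other anions, SLC9 proteins exchange sodium for protons, and SLC12 proteins move chloride with sodium or potassium. In the lung these families take part in pH control, in fluid secretion and absorption, and in metal supply to enzymes.

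Of the 44 genes, 40 passed the filter on low counts and 7 of these differed between the groups at an adjusted p below 0.05, by edgeR's quasi-likelihood test with Benjamini-Hochberg adjustment over 17072 genes. Mt1, Slc39a8, Slc39a4, Slc4a5 and Slc12a2 were higher in hyperoxia, and Slc26a10 and Slc39a6 were lower. The share called was 17.5% of the tested members, against 11.2% of all tested genes. The members were measured more precisely, with a median SE of the log2 fold change of 0.147, against 0.187 over all tested genes. No test of the list was run. By direction, 5 rose, which is 12.5% against a background of 6.77%, and 2 fell, where the background was 4.41%. The median log2 fold change (hyperoxia over room air) of the 40 was 0.07, against -0.0093 over all genes. The groups did not overlap at 19 members (47.5%, background 30.9%), 12 of them higher in hyperoxia (background 16.5%) and 7 lower (background 14.4%). Of the 33 members that did not pass, 26 had 95% limits of the log2 fold change that lay within -1 and 1. The 4 members that were not tested were Mt2, Slc4a10, Slc9a2 and Slc30a10.

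**Figure D1:**
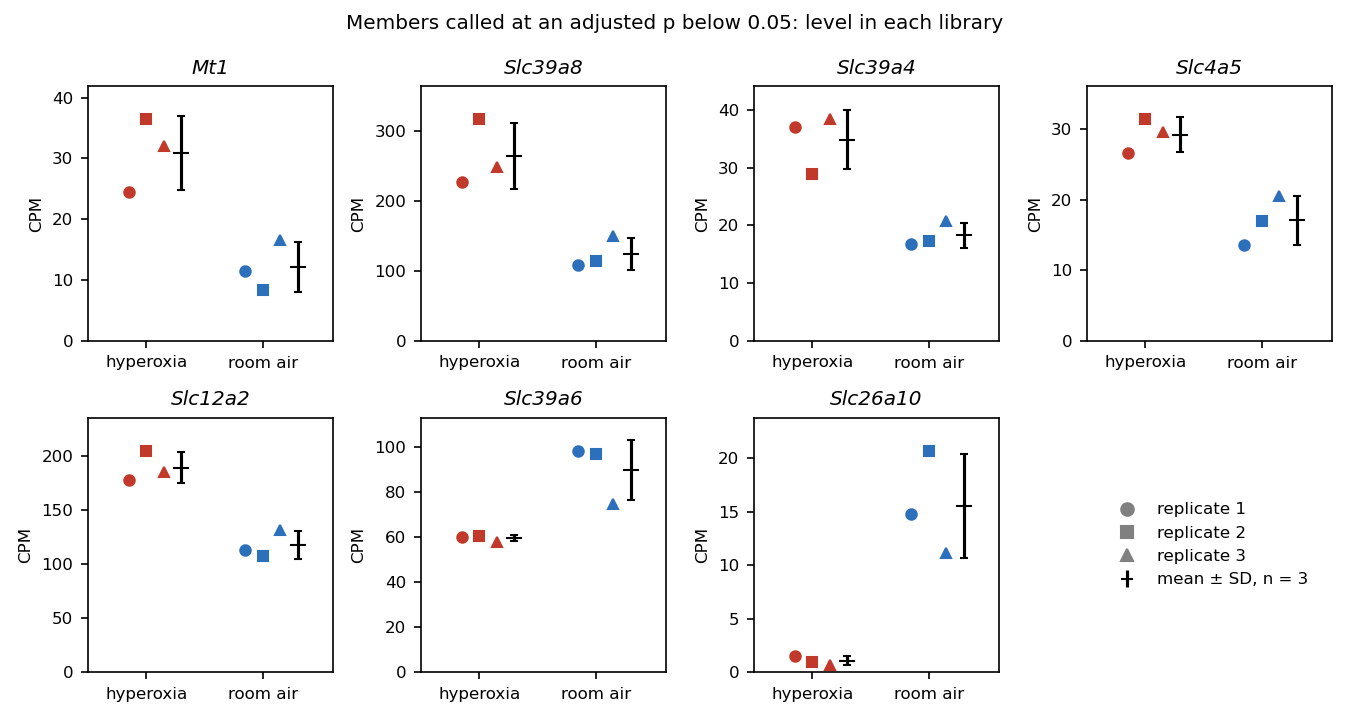
Level in CPM (vertical axes, from 0) of the 7 members that passed the test, with 1 point per library (circle, square and triangle for replicates 1, 2 and 3), hyperoxia left and room air right, and black marks for the mean ± SD (n = 3). In each panel every hyperoxia library lies on the same side of every room air library: above for Mt1, Slc39a8, Slc39a4, Slc4a5 and Slc12a2, below for Slc39a6 and Slc26a10.

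Mt1 encodes a small cysteine-rich protein that stores zinc and copper. It stood at 24.4, 36.4 and 32.0 CPM in hyperoxia 1, 2 and 3, against 11.5, 8.39 and 16.5 CPM in room air 1, 2 and 3. Every hyperoxia library lay above every room air library. The rise was 2.54-fold (log2 fold change 1.35, SE 0.24, adjusted p = 0.00475), and the call held without any single library (adjusted p 0.000853 to 0.026). Mt2, the adjacent metallothionein gene, had 4, 0 and 4 raw counts in hyperoxia, against 0, 2 and 6 in room air, and was not tested. In the GENCODE M21 annotation, 73.5% of the exonic bases of Mt2 overlap Gm45774, a gene on the opposite strand, which had 4, 11 and 1 counts in hyperoxia and 2, 0 and 1 in room air. Neither the strand setting nor the handling of ambiguous reads is stated in the sources used here, so the low count of Mt2 cannot be read as a low level of its RNA. Mtf1, the gene for the zinc-sensing factor, did not pass (17.7 ± 4.07 CPM in hyperoxia, 18.8 ± 1.69 CPM in room air, SD, n = 3; log2 fold change -0.09, SE 0.18, adjusted p = 0.80).

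The promoter windows of both metallothionein genes and of the zinc exporter gene Slc30a1 are shown because MTF-1 is known to act on all 3 genes, and because Mt1 rose while Slc30a1 did not pass. They come from RefSeq on GRCm38.p6 and run 5′ to 3′ on the gene's strand, with 250 bases before and 50 after the start annotated there. Bases outside such windows were not searched. Capitals mark the core of the metal-response element, searched as TGCACNC or TGCGCNC on both strands, so that a match on the other strand reads GNGTGCA or GNGCGCA here.
Mt1 (chr8:94178839-94179138, plus strand): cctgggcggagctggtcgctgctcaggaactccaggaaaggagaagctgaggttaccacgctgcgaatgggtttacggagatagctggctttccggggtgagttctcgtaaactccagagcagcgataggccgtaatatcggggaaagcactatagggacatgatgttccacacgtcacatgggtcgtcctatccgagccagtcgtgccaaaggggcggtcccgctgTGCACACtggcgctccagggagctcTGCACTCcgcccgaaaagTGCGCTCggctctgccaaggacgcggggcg
Mt2 (chr8:94172368-94172667, plus strand): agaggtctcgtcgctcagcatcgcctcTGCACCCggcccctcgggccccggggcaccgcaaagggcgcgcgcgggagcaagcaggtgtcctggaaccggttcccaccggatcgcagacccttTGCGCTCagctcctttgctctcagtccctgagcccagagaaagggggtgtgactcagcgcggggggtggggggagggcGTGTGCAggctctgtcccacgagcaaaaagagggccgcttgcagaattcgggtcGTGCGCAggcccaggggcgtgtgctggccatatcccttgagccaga
Slc30a1 (chr1:191906531-191906830, plus strand): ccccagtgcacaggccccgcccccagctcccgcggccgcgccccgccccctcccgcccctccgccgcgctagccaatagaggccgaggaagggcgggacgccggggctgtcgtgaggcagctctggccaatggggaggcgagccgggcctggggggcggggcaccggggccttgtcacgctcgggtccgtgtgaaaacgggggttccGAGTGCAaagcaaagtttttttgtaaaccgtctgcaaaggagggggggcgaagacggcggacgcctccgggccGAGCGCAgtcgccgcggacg
The Mt1 window held 3 matches, the Mt2 window 4 and the Slc30a1 window 2. The windows of Slc30a4, which did not pass, and Slc30a10, which was not tested, also held 3 each. That of Slc4a5, which rose, held 0. Among 32851 RefSeq promoter windows of the same length, 25.7% held at least 1 match and 1.97% held at least 3. For 33 of the 44 genes the table gave 41 windows, of which 18 (43.9%) held a match. A match describes these letters and is not a measured binding site.

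Among the 9 zinc importers (ZIP genes), 2 (22.2%, background 6.77%) rose, 1 (11.1%, background 4.41%) fell and 6 missed the threshold. The median log2 fold change of the zinc importers was 0.25. Slc39a8, which encodes ZIP8, a carrier of zinc and manganese, had the largest rise among them. Its level was 226, 316 and 248 CPM in the hyperoxia libraries, against 108, 114 and 149.6 CPM in the room air libraries. The groups did not overlap, and the rise was 2.12-fold (log2 fold change 1.09, SE 0.16, adjusted p = 0.00223, and 0.000564 to 0.0146 with each library omitted in turn). Slc39a4 encodes ZIP4, the carrier of dietary zinc uptake in the intestine. It was at 37.0, 28.9 and 38.4 CPM in hyperoxia, against 16.8, 17.3 and 20.8 CPM in room air. Here hyperoxia 2 was the lowest of its group but still above every room air library, and the log2 fold change was 0.93 (SE 0.15, adjusted p = 0.00307). Slc39a6 encodes ZIP6, which pairs with ZIP10 in the plasma membrane. It fell to 60.2, 60.6 and 58.0 CPM in hyperoxia, against 98.5, 96.9 and 74.8 CPM in room air. The hyperoxia libraries lay within a narrow range below all room air libraries (log2 fold change -0.60, SE 0.12, adjusted p = 0.0106). With a term for Y-linked reads, which sets hyperoxia 2 alone against room air, Slc39a6 no longer passed (log2 fold change -0.57). Its partner Slc39a10 averaged 77.1 ± 8.32 CPM in hyperoxia and 86.7 ± 10.6 CPM in room air, and the groups overlapped (log2 fold change -0.17, 95% limits -0.45 and 0.11, adjusted p = 0.44).

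The ZIP genes that did not pass included the closest relative of Slc39a8. Slc39a14 (ZIP14), a carrier of zinc, manganese and iron, was at 19.1 ± 1.63 CPM in hyperoxia and 24.7 ± 3.69 CPM in room air, with groups that did not overlap (log2 fold change -0.37, SE 0.15, adjusted p = 0.14). Slc39a13 (ZIP13), which releases zinc from vesicles of the secretory pathway, was at 30.2, 30.6 and 29.9 CPM in hyperoxia, against 19.9, 23.3 and 24.4 CPM in room air. Its groups did not overlap either, but it stayed just above the threshold (log2 fold change 0.42, SE 0.12, adjusted p = 0.0514), and was called by DESeq2 (0.0411). Slc39a1 (ZIP1), a widespread importer at the plasma membrane, averaged 157 ± 7.96 CPM in hyperoxia and 132 ± 12.7 CPM in room air (log2 fold change 0.25, SE 0.11, adjusted p = 0.19). Slc39a11 overlapped between the groups (log2 fold change 0.09). Slc39a7, which encodes the endoplasmic reticulum carrier ZIP7, had 50 to 128 counts in hyperoxia and 31 to 56 in room air (log2 fold change 1.07, SE 0.46, adjusted p = 0.17). In GENCODE M21, 80.7% of its exonic bases overlap Gm20427 on the same strand, so its level is uncertain.

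The promoter of Slc39a8 is shown because this gene was the riser with the most counts. RefSeq gave 2 windows, in the same orientation as the gene and with the same marking of metal-response cores.
Slc39a8, first window (chr3:135825029-135825328, plus strand): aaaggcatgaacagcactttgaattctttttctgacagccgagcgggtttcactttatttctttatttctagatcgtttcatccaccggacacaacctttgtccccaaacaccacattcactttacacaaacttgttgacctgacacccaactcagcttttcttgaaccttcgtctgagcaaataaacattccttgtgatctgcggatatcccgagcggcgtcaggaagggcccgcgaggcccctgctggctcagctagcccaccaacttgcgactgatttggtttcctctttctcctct
Slc39a8, second window (chr3:135825407-135825706, plus strand): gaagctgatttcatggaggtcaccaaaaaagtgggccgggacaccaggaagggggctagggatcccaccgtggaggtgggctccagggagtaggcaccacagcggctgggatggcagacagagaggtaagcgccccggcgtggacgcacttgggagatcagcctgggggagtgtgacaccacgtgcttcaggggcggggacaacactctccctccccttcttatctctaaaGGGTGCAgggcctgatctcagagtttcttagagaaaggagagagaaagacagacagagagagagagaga
The first window held 0 matches and the second 1.

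None of the 6 tested zinc exporters (ZnT genes) passed by edgeR, DESeq2 or limma-voom, and 0 had an unadjusted p below 0.05. Their log2 fold changes ran from -0.26 to 0.12. Their 95% limits all lay between -0.53 and 0.40, so that changes beyond those sizes fall outside the intervals. Slc30a1, the exporter at the plasma membrane and the other textbook target of MTF-1, was at 70.5, 65.7 and 77.2 CPM in hyperoxia, against 76.8, 74.0 and 51.8 CPM in room air. The groups overlapped, and room air 3 was the lowest library (log2 fold change 0.08, SE 0.15, adjusted p = 0.80). Its sign turned negative without room air 3 (-0.09). Slc30a9, the mitochondrial zinc exporter gene, averaged 85.0 ± 1.42 CPM in hyperoxia and 84.2 ± 3.76 CPM in room air. Slc30a5, Slc30a6 and Slc30a7, which load zinc into the secretory pathway, had log2 fold changes of -0.16, -0.13 and -0.26, and Slc30a4, a vesicular exporter gene, 0.12. The groups did not overlap at Slc30a7 (34.0 ± 3.98 CPM in hyperoxia, 40.7 ± 2.33 CPM in room air, adjusted p = 0.21) or at Slc30a4 (45.0 ± 0.371 CPM in hyperoxia, 41.3 ± 1.95 CPM in room air, adjusted p = 0.50). Slc30a10, which encodes a manganese exporter, had 2 counts in hyperoxia 3 and 0 in the other five libraries, where a count of 0 allows up to 3.

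**Figure D2:**
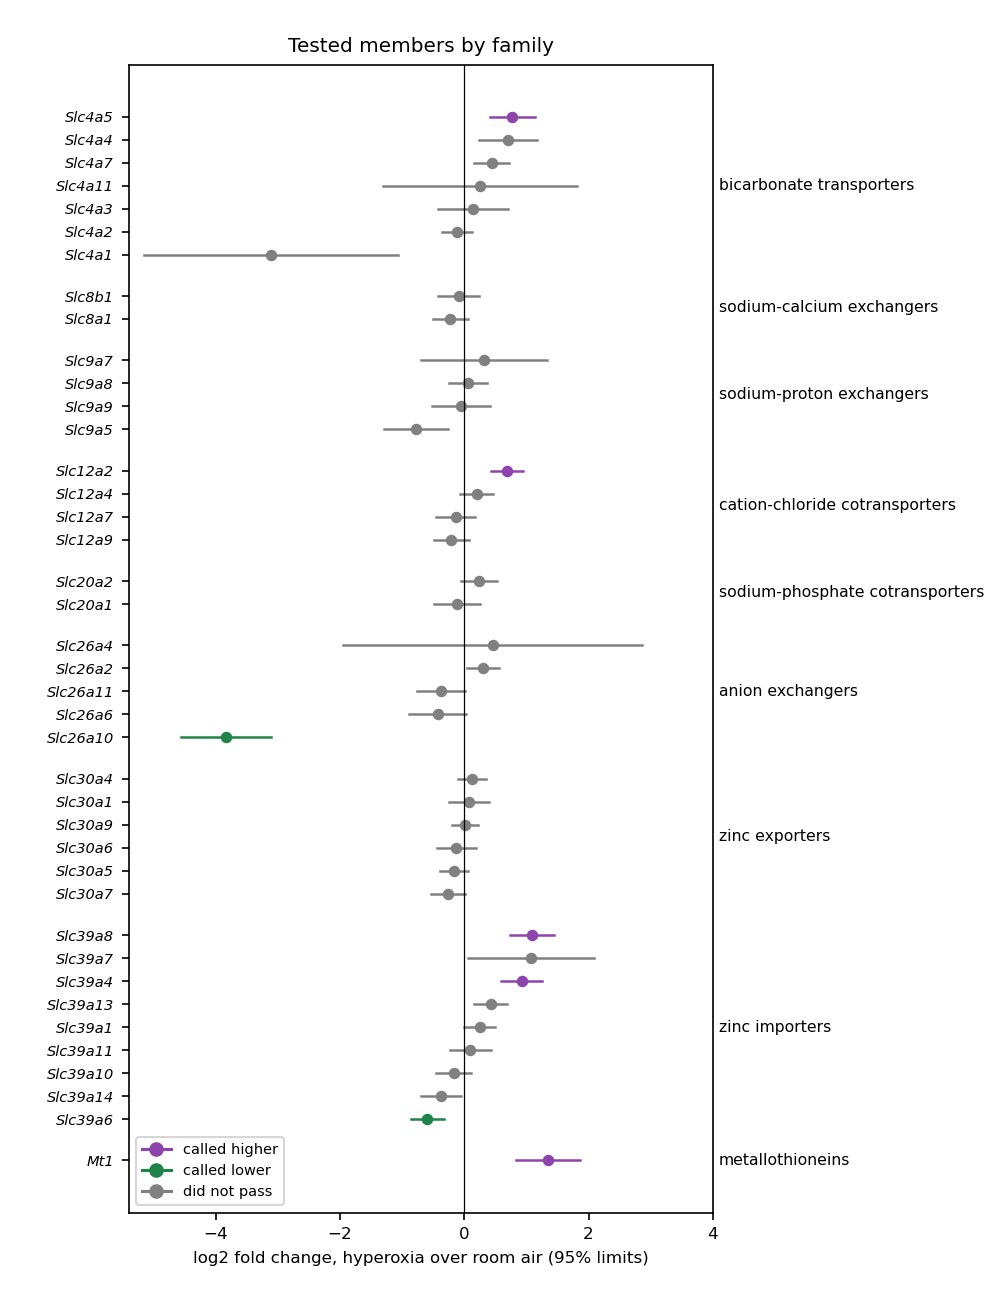
Log2 fold change, hyperoxia over room air, of the 40 tested members with 95% limits (horizontal axis), grouped by family; purple marks members called higher, green members called lower and grey those that did not pass. Slc26a10 at -3.83 and Mt1 at 1.35 are the extremes among called genes, the 6 zinc exporters lie close to 0, and the widest limits belong to Slc26a4, Slc4a1 and Slc4a11.

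Among the wider set of metal-handling genes, 1 of 13 tested (7.69%) rose by edgeR, near the 6.77% over all genes. At an unadjusted p below 0.05, 4 of 13 (30.8%) were higher and 0 lower, against 13.5% higher and 11.7% lower over all genes. Their median log2 fold change was 0.19, and DESeq2 called 3 higher. The gene that rose was Slc40a1, which encodes ferroportin, the iron exporter, at 21.2, 16.5 and 18.9 CPM in hyperoxia, against 6.41, 5.99 and 7.65 CPM in room air (log2 fold change 1.50, SE 0.17, adjusted p = 0.000648). The copper carriers Slc31a1, Slc31a2, Atp7a and Atp7b did not pass. Genes of the transporter families that are not among the 44 numbered 32, of which 15 were tested and 3 (20.0%, background 6.77%) rose. By edgeR, DESeq2, limma-voom or at an unadjusted p below 0.05, 0 were lower. Among those that rose were the ZIP gene Slc39a2 (12.9 ± 2.68 CPM in hyperoxia, 4.05 ± 2.08 CPM in room air; log2 fold change 1.67, SE 0.34, adjusted p = 0.0111) and the sodium-bicarbonate transporter gene Slc4a8 (5.28 ± 0.637 CPM in hyperoxia, 1.98 ± 0.0862 CPM in room air; log2 fold change 1.41, SE 0.25, adjusted p = 0.00562). Omitting room air 2 ended the call on Slc39a2 (adjusted p = 0.0536).

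Slc26a10, of the SLC26 anion exchanger family, had the largest fall of the members. Its raw counts were 63, 40 and 29 in hyperoxia 1, 2 and 3, against 610, 812 and 461 in room air 1, 2 and 3. In CPM this was 1.53, 0.989 and 0.736 in hyperoxia, against 14.8, 20.7 and 11.1 in room air, so that the highest hyperoxia library was far below the lowest room air library. The fall was 14.3-fold (log2 fold change -3.83, 95% limits -4.56 and -3.11, adjusted p = 0.000127), and the log2 fold change ran from -4.16 to -3.57 over 15 other settings of the test and its inputs. In GENCODE M21, 17.8% of its exonic bases overlap B4galnt1 on the opposite strand. B4galnt1 itself was at 1245, 1161 and 952 counts in hyperoxia and 1128, 814 and 1429 in room air, and did not pass (log2 fold change 0.01, adjusted p = 0.98). The promoter of Slc26a10 is shown as that of the member with the largest change, and holds 0 metal-response cores.
Slc26a10 (chr10:127180533-127180832, minus strand): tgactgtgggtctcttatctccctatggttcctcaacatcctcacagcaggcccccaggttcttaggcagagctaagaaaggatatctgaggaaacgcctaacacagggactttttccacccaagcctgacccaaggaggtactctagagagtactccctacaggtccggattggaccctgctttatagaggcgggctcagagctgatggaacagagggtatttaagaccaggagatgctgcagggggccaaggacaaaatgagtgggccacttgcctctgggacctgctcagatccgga

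The other 4 anion exchangers did not pass. Slc26a2, the sulfate transporter gene, was at 35.6, 43.1 and 41.3 CPM in hyperoxia, against 31.9, 35.0 and 30.4 CPM in room air (log2 fold change 0.30, SE 0.12, adjusted p = 0.14). Its groups did not overlap. Slc26a6, which encodes an exchanger of chloride for bicarbonate and oxalate, lay lower in every hyperoxia library (5.86 ± 0.756 CPM in hyperoxia, 7.87 ± 1.11 CPM in room air; log2 fold change -0.43, SE 0.21, adjusted p = 0.24). Slc26a11 overlapped between the groups (log2 fold change -0.37, adjusted p = 0.22). Slc26a4, the gene for pendrin, an exchanger of chloride, iodide and bicarbonate, had 14, 1 and 56 counts in hyperoxia, against 5, 10 and 38 in room air. Its 95% limits of -1.95 and 2.86 leave its direction undetermined, and its counts varied widely within both groups.

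Among the bicarbonate transporters, 1 of 7 tested (14.3%, background 6.77%) rose and 6 did not pass by edgeR. DESeq2 called 3 higher and 1 lower, and limma-voom 2 higher and 1 lower. Slc4a5 encodes NBCe2, an electrogenic cotransporter of sodium and bicarbonate. It was at 26.6, 31.4 and 29.7 CPM in hyperoxia, against 13.6, 17.1 and 20.6 CPM in room air. All hyperoxia libraries were above all room air libraries (log2 fold change 0.77, SE 0.16, adjusted p = 0.0122). With room air 2 omitted, Slc4a5 was just above the threshold (adjusted p = 0.0511). The related cotransporter genes Slc4a4 (NBCe1) and Slc4a7 (NBCn1) did not overlap between groups either, but narrowly missed the threshold. Slc4a4 was at 10.7, 12.9 and 12.5 CPM in hyperoxia, against 5.42, 8.01 and 8.78 CPM in room air (log2 fold change 0.70, SE 0.21, adjusted p = 0.0594). Slc4a4 passed once room air 3 was omitted (adjusted p = 0.0421), by DESeq2 (0.0198) and by limma-voom (0.0496). Slc4a7 was at 23.2, 27.8 and 25.8 CPM in hyperoxia, against 18.1, 20.1 and 18.4 CPM in room air (log2 fold change 0.44, SE 0.13, adjusted p = 0.0533), and was called by DESeq2 (0.0432).

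The exchangers of chloride for bicarbonate did not pass by edgeR. Slc4a2 (AE2), found in many cell types, averaged 101 ± 5.73 CPM in hyperoxia and 109 ± 10.9 CPM in room air (log2 fold change -0.11, 95% limits -0.35 and 0.13). Slc4a3 (AE3) overlapped between the groups (log2 fold change 0.14). Slc4a1 encodes band 3, the exchanger of red blood cells, and had 4, 4 and 0 counts in hyperoxia, against 22, 22 and 28 in room air. The groups did not overlap, and the test missed the threshold (log2 fold change -3.11, 95% limits -5.16 and -1.06, adjusted p = 0.0563), whereas Slc4a1 was called lower by DESeq2 (0.0187) and limma-voom (0.0479). In the same libraries, 2 of 5 tested erythroid markers fell by edgeR and 4 of 5 were called lower by DESeq2 and by limma-voom. The erythroid markers summed to 27.5, 15.6 and 11.9 CPM in hyperoxia, against 51.8, 36.5 and 32.4 CPM in room air. The part of red cell RNA in the result for Slc4a1 was not tested. Slc4a11 had 9 to 56 counts in hyperoxia and 18 to 38 in room air, and Slc4a10, which was not tested, had 0 to 6 in hyperoxia and 2 to 12 in room air.

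Carbonic anhydrases, which interconvert carbon dioxide and bicarbonate, and cofactors of the exchangers were set beside these families. Of 22 such genes 15 were tested, and 4 (26.7%, background 6.77%) rose, 1 (6.67%, background 4.41%) fell and 10 missed the threshold. The median log2 fold change was 0.27. Car14, a membrane-bound carbonic anhydrase gene, fell to 7.39 ± 3.95 CPM in hyperoxia, against 21.8 ± 3.61 CPM in room air (log2 fold change -1.56, SE 0.36, adjusted p = 0.02). Omitting room air 1 (adjusted p = 0.0684) or room air 2 (0.0746) ended that call. Car5b, a mitochondrial carbonic anhydrase gene, rose to 12.8 ± 3.69 CPM in hyperoxia, against 5.94 ± 0.542 CPM in room air (log2 fold change 1.11, SE 0.24, adjusted p = 0.0128). Car5b missed the threshold when room air 1 (0.0538), hyperoxia 1 (0.0512) or hyperoxia 3 (0.063) was omitted. With the term for Y-linked reads, which sets hyperoxia 2 alone against room air, its log2 fold change was 0.53 and it did not pass. Chp2, a calcium-binding cofactor of sodium-proton exchangers, rose to 13.1 ± 1.2 CPM in hyperoxia, against 6.66 ± 0.497 CPM in room air (log2 fold change 0.97, SE 0.17, adjusted p = 0.0052).

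Of 4 cation-chloride cotransporters, 1 (25.0%, background 6.77%) rose and 3 did not pass. Slc12a2 encodes NKCC1, which loads cells with chloride together with sodium and potassium. It was at 177.5, 204.7 and 185 CPM in hyperoxia, against 113, 107 and 132 CPM in room air. The groups did not overlap, and the rise was 1.61-fold (log2 fold change 0.69, SE 0.12, adjusted p = 0.0041, and 0.00176 to 0.0222 with each library omitted in turn). The potassium-chloride exporters Slc12a4 (KCC1) and Slc12a7 (KCC4) did not pass. Slc12a4 averaged 126 ± 9.55 CPM in hyperoxia and 110.0 ± 14.5 CPM in room air (log2 fold change 0.20, 95% limits -0.07 and 0.47). Slc12a7 averaged 125 ± 8.35 CPM in hyperoxia and 138 ± 26.1 CPM in room air (log2 fold change -0.14, 95% limits -0.45 and 0.17). Slc12a9, which encodes a relative that binds other cotransporters, had a log2 fold change of -0.21.

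WNK kinases, through the kinases SPAK and OSR1, activate NKCC1 and restrain the KCC exporters, and LRRC8 proteins form the channel through which swollen cells release chloride. Of 14 genes of this system, 1 (7.14%, background 6.77%) rose, 2 (14.3%, background 4.41%) fell and 11 missed the threshold. The median log2 fold change was -0.02. Wnk1 was at 346, 398.5 and 355.5 CPM in hyperoxia, against 252, 276.5 and 249 CPM in room air (log2 fold change 0.50, SE 0.12, adjusted p = 0.0191). Wnk1 missed the threshold when room air 1 (adjusted p = 0.0663), hyperoxia 2 (0.0655) or hyperoxia 3 (0.0716) was omitted. Lrrc8c fell to 174, 137 and 183 CPM in hyperoxia, against 268.5, 319 and 227 CPM in room air (log2 fold change -0.72, SE 0.15, adjusted p = 0.0129), and with room air 2 omitted it missed the threshold (0.0566). Lrrc8b fell as well (log2 fold change -0.49, SE 0.13, adjusted p = 0.0393), and missed the threshold with room air 1 (0.108), room air 2 (0.137), hyperoxia 1 (0.112) or hyperoxia 2 (0.124) omitted. The pan-endothelial markers had a median log2 fold change of -0.35 in the same libraries, and their part in the results for Lrrc8b and Lrrc8c was not tested.

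None of the 4 tested sodium-proton exchangers passed by edgeR, whereas 1 (Slc9a5) had an unadjusted p below 0.05 and was called by DESeq2. Slc9a5 encodes NHE5, an exchanger of recycling endosomes known from the brain. It was at 8.46, 6.92 and 11.2 CPM in hyperoxia, against 11.5, 14.6 and 19.4 CPM in room air. The groups lay side by side without overlap (log2 fold change -0.78, SE 0.24, adjusted p = 0.0599), and Slc9a5 passed when room air 1 (adjusted p = 0.0447) or hyperoxia 3 (0.0467) was omitted. The organellar exchanger genes Slc9a7, Slc9a8 and Slc9a9 overlapped between the groups, with log2 fold changes of 0.32, 0.06 and -0.06. Slc9a7 lies on chromosome X and had 97, 108 and 35 counts in hyperoxia, against 85, 42 and 67 in room air. Slc9a2 had 0 to 29 counts in hyperoxia and 1 to 8 in room air, and was not tested.

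The genes for sodium-calcium exchange and for phosphate uptake passed neither by edgeR nor by DESeq2 or limma-voom, and 0 of them had an unadjusted p below 0.05. Slc8a1 (NCX1), which extrudes calcium through the plasma membrane, was at 53.8 ± 3.92 CPM in hyperoxia and 62.7 ± 8.98 CPM in room air (log2 fold change -0.22, 95% limits -0.50 and 0.05). Slc8b1 (NCLX), its mitochondrial counterpart, was at 25.2 ± 1.21 CPM in hyperoxia and 26.9 ± 4.76 CPM in room air. The phosphate carriers Slc20a1 (PiT-1) and Slc20a2 (PiT-2) had log2 fold changes of -0.12 and 0.24. Slc20a2 did not overlap between groups (27.8 ± 3.43 CPM in hyperoxia, 23.5 ± 1.13 CPM in room air, adjusted p = 0.28).

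**Figure D3:**
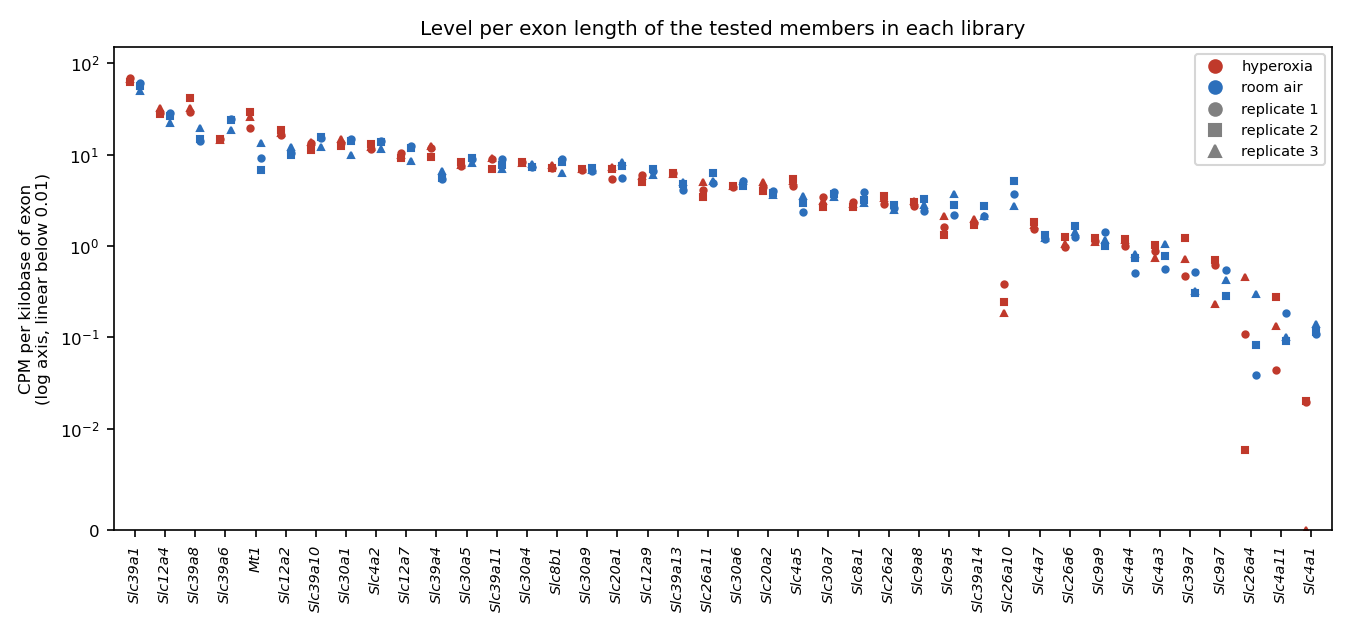
Level of the 40 tested members in each library, in CPM per kilobase of exon (vertical axis, logarithmic above 0.01), ordered by the mean over all 6 libraries; red marks hyperoxia, blue room air, and the shapes replicates 1 to 3. Slc39a1 stands highest in all libraries, and Slc26a10, at 0.269 in hyperoxia and 3.86 in room air, shows the widest gap between the groups above 1 CPM per kilobase in room air.

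Levels of different genes were compared per exon length, in CPM per kilobase. Slc39a1 ranked first, at 66.2 ± 3.37 CPM per kilobase in hyperoxia and 55.7 ± 5.37 in room air. The next were Slc12a4 (29.5 ± 2.23 in hyperoxia, 25.7 ± 3.38 in room air), Slc39a8 (34.4 ± 6.12 in hyperoxia, 16.2 ± 2.91 in room air), Slc39a6 (14.6 ± 0.346 in hyperoxia, 22.1 ± 3.25 in room air), Mt1 (24.8 ± 4.88 in hyperoxia, 9.76 ± 3.29 in room air) and Slc12a2 (17.3 ± 1.28 in hyperoxia, 10.7 ± 1.17 in room air). In this order over all 6 libraries, 3 of the 6 highest were zinc importers. The order differed by group: in room air Slc39a10 (14.2) and Slc4a2 (13.1) stood above Slc12a2 and Mt1, and the mean of Slc39a6 was below that of Slc39a8 in hyperoxia (14.6 and 34.4 CPM per kilobase) and above it in room air (22.1 and 16.2). Exon lengths are from GENCODE M21 and may differ from those of the authors' annotation.

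**Figure D4:**
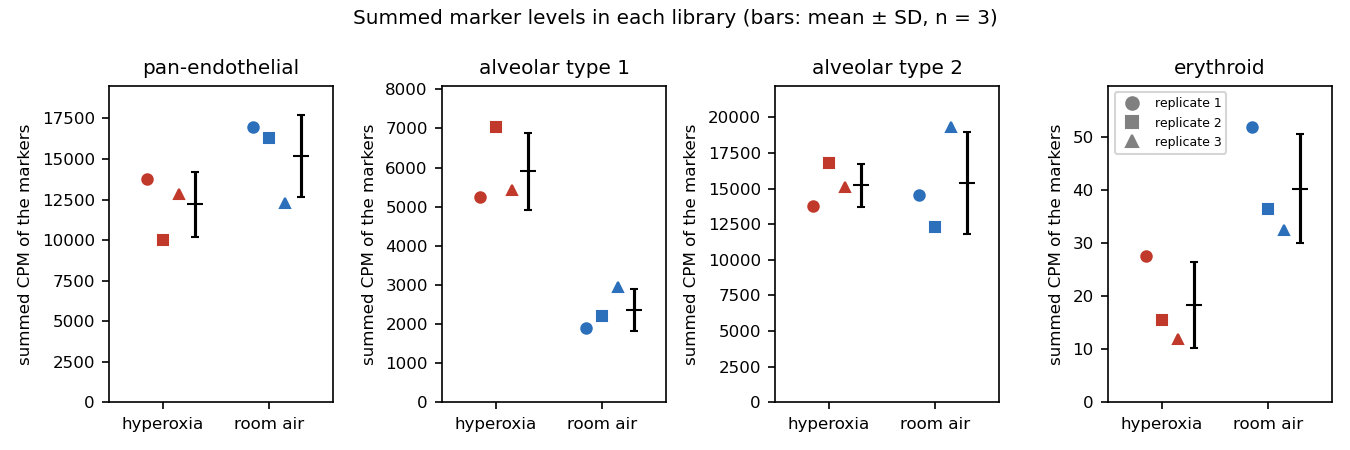
Summed CPM (vertical axes, from 0) of the markers of 4 cell types in each library, hyperoxia left and room air right, with black marks for the mean ± SD (n = 3). The alveolar type 1 sum is 5238 to 7029 CPM in hyperoxia and 1901 to 2948 CPM in room air, whereas the alveolar type 2 and pan-endothelial sums overlap between the groups.

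Among the markers of other cells, those of alveolar type 1 cells rose as a set. The tested fibroblast, neutrophil and lymphocyte markers did not pass by edgeR. Of 9 macrophage markers 2 rose and 1 fell, and of 8 airway markers 1 rose. Of 4 mesothelial markers 1 rose (list median log2 fold change -0.46), with sums of 123, 174 and 139 CPM in hyperoxia and 66.8, 49.2 and 56.7 CPM in room air. Of 5 mast cell and basophil markers 1 fell (list median 0.02), with sums of 199, 122 and 185 CPM in hyperoxia and 457, 550 and 435 CPM in room air. All 9 alveolar type 1 markers rose (median log2 fold change 1.28) and summed to 5238, 7029 and 5439 CPM in hyperoxia, against 1901, 2213 and 2948 CPM in room air. None of the 8 alveolar type 2 markers passed by edgeR, with 1 higher and 1 lower at an unadjusted p below 0.05 and 1 lower by DESeq2. Among the pan-endothelial markers 1 of 10 fell by edgeR (background 4.41%) and 2 were lower by DESeq2, with a median of -0.35. At an unadjusted p below 0.05, 4 of 10 were lower and 0 higher, against 11.7% lower and 13.5% higher over all genes. Only 1 of the 10 had a log2 fold change above 0. Within each group, the library with the highest alveolar type 1 sum (hyperoxia 2 and room air 3) also had the highest level of Mt1, Slc39a8, Slc4a5 and Slc12a2. Slc39a4 was highest in room air 3 of its group but lowest in hyperoxia 2. With both of these libraries left out, the log2 fold changes were 1.49 for Mt1, 1.08 for Slc39a8, 1.13 for Slc39a4, 0.86 for Slc4a5 and 0.71 for Slc12a2, and all 5 passed (adjusted p 0.00028 to 0.0106). The same fit gave -3.97 for Slc26a10 and -0.74 for Slc39a6, both passing (adjusted p = 0.00016 and 0.00238). The libraries kept in that fit still differed in alveolar type 1 sum (5238 and 5439 CPM in hyperoxia, 1901 and 2213 CPM in room air). Of 8 genes known to rise on tissue dissociation 5 rose (62.5%, background 6.77%), with a median log2 fold change of 0.70. The 8 summed to 9086, 9412 and 9587 CPM in hyperoxia, against 4709, 7699 and 5737 CPM in room air. The part of RNA from alveolar type 1 and other cell types, and of the dissociation response, in these results was not tested. A term for the presence of Y-linked reads gave log2 fold changes of 1.58 for Mt1, 1.35 for Slc39a8 and 0.66 for Slc39a4. For Slc4a5, Slc12a2 and Slc26a10 they were 0.88, 0.80 and -3.97. Because hyperoxia 1 and 3 lacked such reads, these values compare hyperoxia 2 alone with the room air libraries.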

How the data were processed

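RNA-seq libraries of CD31-selected lung cells, 3 from hyperoxia and 3 from room air, were compared. The authors deposited raw counts for 56941 Ensembl gene IDs, unnormalized. Per the submitters' processing notes, the tools were featureCounts, HISAT2 2.2.1, DESeq2 and Subread 2.0.6 and the build GRCm39, with no role stated. No annotation release, strand setting or treatment of multimapping reads is given in these sources, so overlapping and near-identical genes are uncertain. Groups and replicate numbers came from sample titles. Separate animals are not stated for the replicates, so p-values measure only how these libraries vary, which may be technical.

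Symbols matched 51948 IDs. Genes were filtered with filterByExpr (minimum count 10, minimum total 15; 17072 kept), scaled by TMM and tested with edgeR 4.0.16 in R 4.3.3 (robust quasi-likelihood, no covariate, Benjamini-Hochberg over all kept genes, threshold 0.05). An adjusted p with no other tool, term or omitted library named beside it is from this test; with a library omitted or the Y-linked term, it is from the same test refitted. SEs are approximate (the log2 fold change divided by the root of F). Exon lengths and overlaps are from GENCODE M21 on GRCm38. The test was checked on simulated counts. Alternatives were DESeq2 1.42.0 (size factors, test), limma-voom 3.58.1, library size only, no filter, 1 CPM in 3 libraries, thresholds 0.01 and 0.1, each library left out, and replicate number as a block; a term for the presence of Y-linked reads, and omission of hyperoxia 2 together with room air 3, were chosen after seeing the data. Named genes were all members, up to 3 called genes per context list by size of change, and abundant markers; Mtf1, B4galnt1, Gm45774, Gm20427 and the genes said not to pass were chosen after their values were seen. Members and lists were chosen with earlier results of these data known. No library duplicated another (chi-square per degree of freedom 14.1 or more within groups). Some genes of these lists are not reported here.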

Additional observations from a re-analysis of the deposited data

How the results depend on the processing

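Of the 7 called members, 5 (Mt1, Slc39a8, Slc39a4, Slc12a2 and Slc26a10) were called in all 15 settings other than a changed threshold. Slc4a5 (adjusted p = 0.0511 without room air 2) and Slc39a6 (with a term for Y-linked reads) were the exceptions. The cause was not tested. The fit with that term compares hyperoxia 2 alone with the room air libraries. Members called higher and lower (5 and 2) became 8 and 4 with the DESeq2 test, 8 and 4 at a threshold of 0.1, and 4 and 1 at 0.01; leaving out 1 library gave 4 to 6 and 2 to 3. Over all genes, 1156 higher became 681 to 1095 with 1 library left out (754 without room air 1, 681 without room air 2, 713 without hyperoxia 3), and 753 lower became 376 to 749 (376 without room air 2, 487, 496 and 430 without hyperoxia 1, 2 and 3). At a threshold of 0.01 they were 556 and 233. The lower genes were 1235 at 0.1, 1243 with no filter, 1206 with the DESeq2 test and 1223 with the Y-linked term. Over the context lists, 13 higher and 3 lower became 7 to 13 and 0 to 4 with 1 library left out, 6 and 0 at 0.01, and 22 and 5 at 0.1; the lower were 5 with no filter, 5 with the DESeq2 test and 10 with the Y-linked term.

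The log2 fold change changed sign 21 times over 10 members, none called, with adjusted p of at least 0.16. With 1 library left out it ran from -0.076 to 0.39 for Slc4a3, -0.52 to 0.70 for Slc4a11, -0.23 to 0.0063 for Slc8b1, -0.048 to 0.17 for Slc9a8, -0.17 to 0.088 for Slc9a9, -0.28 to 0.012 for Slc20a1, -1.24 to 1.65 for Slc26a4, -0.086 to 0.17 for Slc30a1 and -0.024 to 0.048 for Slc30a9. Slc30a9 was -0.0030 by library size only. By limma-voom Slc4a11 was -0.040 and Slc26a4 -0.29. With the Y-linked term Slc9a9 was 0.012, Slc26a4 -3.97, Slc30a1 -0.038 and Slc39a11 -0.17. Without both hyperoxia 2 and room air 3, Slc4a11 was -0.67, Slc30a1 -0.043 and Slc30a9 -0.015.

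Same-numbered libraries of the groups had weak correlations of deviations from the group mean (0.112, -0.0389 and -0.0899). No pairing by number was detected, but with so few libraries a pairing may go unseen. In a fit with a replicate block, 881 genes were higher and 514 lower, 5 members higher and 3 lower, and 10 context genes higher and 2 lower. Slc9a5 passed in it (adjusted p = 0.0453), and Wnk1 (0.0518), Lrrc8b (0.096) and Atp2b4 (0.0642) did not. Slc26a4, Slc4a1 and Slc4a11 had few counts and the widest limits; depth and the spread between libraries were not separated.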

Other observations

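Genes that handle calcium, phosphate and sulfate were also counted. Of 13 tested calcium pump and mitochondrial uptake genes, 1 (7.69%) rose and 12 missed the threshold by edgeR, near the 6.77% that rose over all genes (median log2 fold change 0.10). At an unadjusted p below 0.05, 3 (23.1%) were higher and 0 lower, against 13.5% higher and 11.7% lower over all genes. DESeq2 called 2 higher. Atp2b4, a plasma membrane calcium pump gene, was at 88.6, 81.5 and 102 CPM in hyperoxia, against 71.3, 64.1 and 52.2 CPM in room air (log2 fold change 0.54, SE 0.14, edgeR adjusted p = 0.029). Atp2b4 missed the threshold when hyperoxia 1 (adjusted p = 0.0652), hyperoxia 3 (0.131), room air 2 (0.0797) or room air 3 (0.0661) was omitted. It also missed it with the term for Y-linked reads (log2 fold change 0.38), a fit that compares hyperoxia 2 alone with room air. Of 7 tested phosphate and pyrophosphate genes, 1 (14.3%, background 6.77%) rose and 6 did not pass. Ank, whose product exports pyrophosphate, rose to 33.7, 48.5 and 39.1 CPM in hyperoxia, against 25.4, 22.3 and 21.4 CPM in room air (log2 fold change 0.81, SE 0.15, edgeR adjusted p = 0.00611). Of 7 sulfate activation genes, 2 (28.6%, background 6.77%) rose and 5 did not pass. Papss2, which makes the activated sulfate donor, was at 12.5, 14.0 and 14.1 CPM in hyperoxia, against 5.81, 6.50 and 8.76 CPM in room air (log2 fold change 0.94, SE 0.20, edgeR adjusted p = 0.0117). Omitting room air 2 (adjusted p = 0.0537) or hyperoxia 3 (0.0522) ended that call. Sumf1, which activates sulfatases, had a log2 fold change of 0.49 (SE 0.11, edgeR adjusted p = 0.0175) and missed the threshold when room air 2 (0.0596), hyperoxia 2 (0.0567) or hyperoxia 3 (0.0607) was omitted, and when hyperoxia 2 and room air 3 were omitted together (0.081). Alveolar type 1 markers rose in the same libraries (median 1.28), and their part in these results was not tested.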
